A study of Mus musculus with 6 samples.

Results

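The cell cycle genes described here are 39 genes chosen by symbol from a table of 55401 gene identifiers. They comprise 13 regulators of the G1 phase, 9 genes of DNA replication and 17 genes of mitosis. All 39 symbols were found once in the table, and all 39 passed the filter on low counts. They were measured by RNA sequencing in whole kidney of mice, in 3 libraries of a WT/Sed group and 3 libraries of a Cdo1KKO/Sed group. The labels call the libraries biological replicates and give the genotypes as WT and KO. Type 1 diabetes had been induced in both groups with streptozotocin, a toxin of pancreatic beta cells, so every comparison is between diabetic animals and holds no non-diabetic control. What Sed stands for is not spelled out in the labels, which give no age, sex, Cre driver or batch for either group. RNA carrying poly(A) tails was sequenced.

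A cell enters division by way of G1, in which D-type cyclins with Cdk4 or Cdk6, and then E-type cyclins with Cdk2, phosphorylate the retinoblastoma protein family and release E2F transcription factors. E2F factors switch on the enzymes of DNA replication, and a later wave of genes, driven in part by Foxm1 and MuvB complexes, builds the mitotic machinery. Most cells of the adult kidney are quiescent, and tubule cells can re-enter the cycle after injury. Because G1 regulators are present in many resting cells while mitotic genes are made mainly in dividing ones, the groups were described separately.

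The promoter sequences below show the elements tied to these waves, and are given for 1 G1 regulator, 2 replication genes and 3 mitosis genes. The letters searched on both strands were TTTCCCGC, TTTGGCGC, TTTCGCGC and TTTGCCGC for an E2F site, TTTGAA and TTCGAA for the cell cycle genes homology region (CHR), to which MuvB complexes bind, and CCAAT for the box bound by NF-Y. Each line holds the 150 bases before a RefSeq start (GRCm38.p6), with matches in capitals. They lie at chr10:127063385-127063534 on the plus strand for Cdk4 and, on the minus strand, at chr1:20820313-20820462 for Mcm3, chr1:128359706-128359855 for Mcm6, chr10:69352913-69353062 for Cdk1, chr9:70421555-70421704 for Ccnb2 and chr4:118437344-118437493 for Cdc20.
Cdk4: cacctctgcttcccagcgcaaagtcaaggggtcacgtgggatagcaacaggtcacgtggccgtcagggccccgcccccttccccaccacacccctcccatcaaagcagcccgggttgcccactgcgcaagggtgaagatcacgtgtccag
Mcm3: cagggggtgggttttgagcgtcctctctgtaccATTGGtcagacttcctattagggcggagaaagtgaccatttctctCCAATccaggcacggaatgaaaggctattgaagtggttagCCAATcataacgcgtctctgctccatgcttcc
Mcm6: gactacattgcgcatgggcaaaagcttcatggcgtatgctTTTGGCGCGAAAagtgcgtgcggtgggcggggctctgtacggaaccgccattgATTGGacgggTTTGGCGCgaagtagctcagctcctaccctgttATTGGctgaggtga
Cdk1: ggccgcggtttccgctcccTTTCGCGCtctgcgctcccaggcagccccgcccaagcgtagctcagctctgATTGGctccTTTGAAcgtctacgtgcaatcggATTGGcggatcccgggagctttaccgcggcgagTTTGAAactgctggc
Ccnb2: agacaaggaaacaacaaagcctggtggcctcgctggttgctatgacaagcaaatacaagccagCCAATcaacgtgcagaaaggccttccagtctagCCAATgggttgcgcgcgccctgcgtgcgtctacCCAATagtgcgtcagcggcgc
Cdc20: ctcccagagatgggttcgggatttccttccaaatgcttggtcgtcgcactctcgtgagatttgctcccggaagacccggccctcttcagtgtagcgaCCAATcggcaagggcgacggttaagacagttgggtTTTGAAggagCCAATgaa
Cdk4 held no match in this stretch. Mcm6 held 3 E2F matches, of which the first 2 overlap on opposite strands, and Mcm3 held 3 CCAAT boxes here. Cdk1 carried 1 E2F match, 2 CHR matches and 2 CCAAT boxes. Ccnb2 showed 3 CCAAT boxes, and Cdc20 showed 1 CHR match between its 2 CCAAT boxes.

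Promoters were listed for 31 of the 39 genes, in windows from 250 bases before to 50 bases after the start. An E2F match was held by 4 of 9 replication windows, 2 of 11 G1 windows and 1 of 14 mitosis windows, against 2.26% of all 32851 windows in the table. A CHR match was held by 11 of 14 mitosis windows, 2 of 9 replication windows and 0 of 11 G1 windows, against 19.2% of all. A CCAAT box was held by 13 of 14 mitosis windows, 9 of 9 replication windows and 4 of 11 G1 windows, against 37.4% of all. Within 25 bases before to 40 bases after the start, a range chosen after seeing the matches, 10 of 14 mitosis windows and 3.61% of all windows held a CHR match. Ccnb2, for example, had one 4 bases past its start, outside the printed stretch. These matches describe letters and were not tested as binding sites.

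The 6 libraries held 28145261 to 43872779 counts, and 17194 genes could be tested. Cdo1, which encodes cysteine dioxygenase and is the gene named by the genotype, had 181, 191 and 180 CPM (counts per 1000000 counts of a library, scaled by TMM) in WT/Sed and 109, 118 and 103 CPM in Cdo1KKO/Sed. Over all genes, the comparison of the groups by edgeR's quasi-likelihood test, with Benjamini-Hochberg adjusted p under 0.05, called 37.4%, of which 3250 (18.9%) rose and 3185 (18.5%) fell in Cdo1KKO/Sed. The summed level of 6 proximal tubule markers was 8269 to 8860 CPM in WT/Sed and 5002 to 5443 CPM in Cdo1KKO/Sed, and that of 6 markers of injured tubule was 13.6 to 27.0 CPM and 1810 to 2046 CPM. WT/Sed replicate 2 had the lowest depth of the 6 libraries.

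The cell cycle genes that changed did so in both directions and by less than 2-fold. Of the 39, 6 rose (15.4%, against 18.9% of all genes tested), 4 fell (10.3%, against 18.5%) and 29 were not called. Where only library size was used, 10 rose and 2 fell, and on TPM 13 rose and 0 fell by limma, with the calls over all genes shifted the same way. Over all 17194 genes tested, 5513 rose and 1685 fell with library size only. On TPM plus 1, 6784 of them rose and 1246 fell by limma. With TMM, none of the 39 was both called and at least 2-fold higher, where 6.76% of all genes tested were. In CPM the groups did not overlap for 13 of 39 genes (33.3%), against 50.3% of all genes. The median log2 fold change was 0.12 over the 39 genes and 0.01 over all genes tested. The genes that rose were Ccnd2, Pcna, Mcm3, Birc5, Cenpe and Foxm1, and those that fell were Ccnd3, Cdk4, Cdkn1b and Kif23. In a whole organ, a change in the number of cells of a type and a change in RNA per cell cannot be told apart.

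**Figure D1:**
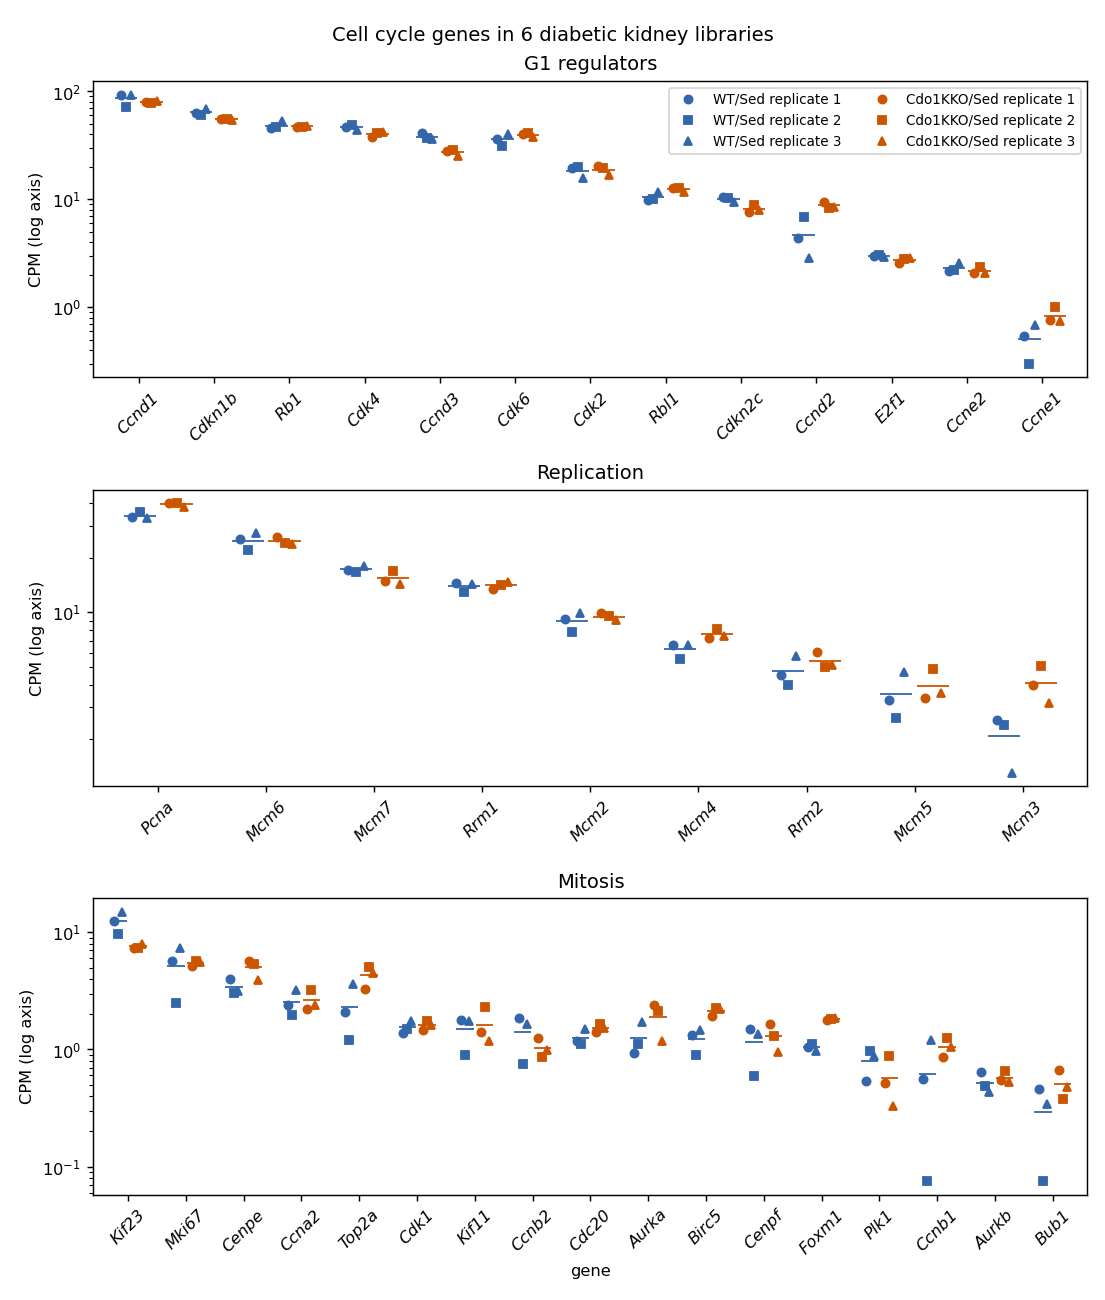
Level of each of the 39 genes in each library, in CPM on a log axis, for G1 regulators, replication and mitosis genes from top to bottom; points are libraries, shapes are replicates and short lines are group means. The genes of mitosis lie lowest and spread most between WT/Sed libraries, and Kif23 is the highest of them in WT/Sed at a mean of 12.4 CPM.

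The 3 groups of genes differed in level. Per length, in TPM (transcripts per 1000000 transcripts), the median WT/Sed level was 6.73 TPM for G1 regulators, 3.89 TPM for replication genes and 0.822 TPM for mitosis genes. In Cdo1KKO/Sed the medians were 8.22, 5.26 and 1.29 TPM. The highest WT/Sed levels were those of Ccnd1 (41.6 ± 6.36 TPM, SD, n = 3), Cdk4 (32.6 ± 1.38 TPM), Cdkn1b (32.2 ± 2.47 TPM) and Pcna (32.1 ± 1.02 TPM), the last 3 of which lay within their SDs of each other. The lowest was Bub1, a kinase of the spindle checkpoint, at 0.153 ± 0.104 TPM.

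Among the 13 G1 regulators, 1 rose (7.69%, against 18.9% of all genes tested), 3 fell (23.1%, against 18.5%) and 9 were not called. Their median log2 fold change was -0.09. The D-type cyclins, the subunits that activate Cdk4 and Cdk6 in response to growth signals, did not move together. Ccnd2 (chromosome 6, 127125162 to 127152193, GRCm38) stood at 4.37, 6.90 and 2.89 CPM in WT/Sed and at 9.49, 8.33 and 8.57 CPM in Cdo1KKO/Sed. All Cdo1KKO/Sed libraries lay above all WT/Sed libraries, and the log2 fold change was 0.92 ± 0.27 (SE), with an edgeR adjusted p of 0.0273. Ccnd3 (chromosome 17, 47505051 to 47599691) stood at 40.9, 37.1 and 36.6 CPM in WT/Sed and at 28.2, 28.5 and 25.4 CPM in Cdo1KKO/Sed. Its groups did not overlap either, and it fell by 0.48 ± 0.07 on the log2 scale (edgeR adjusted p = 0.000401), the smallest adjusted p among the 39 genes. Ccnd1, the most abundant D-type cyclin per length, stood at 92.8, 72.1 and 93.7 CPM in WT/Sed and 80.5, 78.5 and 80.9 CPM in Cdo1KKO/Sed. WT/Sed replicate 2 lay below the Cdo1KKO/Sed range and the other two above it, and no change was called (log2 fold change -0.11, edgeR adjusted p = 0.382, and 0.00196 without WT/Sed replicate 2, where it fell by 0.22).

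Set against each other within a library, in a ratio chosen after the values were seen, Ccnd2 was 0.115 ± 0.0516 (SD, n = 3) of Ccnd3 in TPM in WT/Sed and 0.300 ± 0.0242 in Cdo1KKO/Sed. The ratios did not overlap, and the two-sided exact permutation p was 0.1, the smallest that 3 against 3 libraries can give. In TPM each gene alone was without overlap, Ccnd2 higher and Ccnd3 lower in Cdo1KKO/Sed. The ratios therefore could not overlap, and their p adds no support beyond the single genes. Such a ratio does not depend on how libraries are scaled. The rise of Ccnd2 was not called without WT/Sed replicate 1 or without any single Cdo1KKO/Sed library, with edgeR adjusted p up to 0.105. In WT/Sed, Ccnd2 was highest in replicate 2 and lowest in replicate 3, as were 6 of 6 endothelial markers, whose summed level was 131, 216 and 56.0 CPM in WT/Sed replicates 1 to 3 and 213 to 226 CPM in Cdo1KKO/Sed. The order was not particular to endothelial markers. By summed level it also held for markers of proximal tubule, macrophage, red cell, and fibroblast and pericyte. It held too for T and NK cell and for B and plasma cell, but not for other nephron segments, injured tubule or neutrophil. Besides Ccnd2, that order held for Cdk4, Cdk2, E2f1, Pcna and Foxm1, 6 of 39 genes in all. Its share over all genes tested was not taken. None of the 6 endothelial markers was called by edgeR, and the part of endothelial cells in these levels was not tested.

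**Figure D2:**
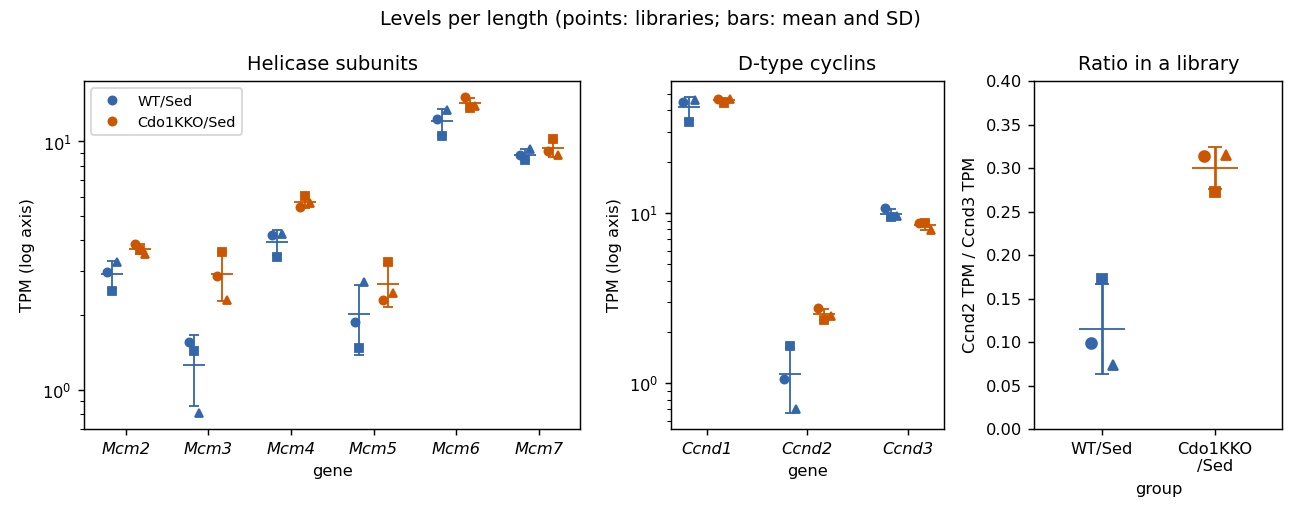
Level per length of the 6 helicase subunits and the 3 D-type cyclins, in TPM on log axes, and the ratio of Ccnd2 to Ccnd3 TPM in each library on a linear axis from 0; points are libraries, bars are mean and SD of 3. The ratio lies at 0.115 on average in WT/Sed and 0.300 in Cdo1KKO/Sed. It could not overlap, since each gene alone is without overlap in TPM and they differ in direction. Mcm3 is the lowest helicase subunit in WT/Sed.

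The kinase partners moved less. Cdk4 (chromosome 10, 127063534 to 127067920) stood at 47.3, 48.8 and 43.8 CPM in WT/Sed and at 38.25, 40.9 and 41.7 CPM in Cdo1KKO/Sed, without overlap. It fell by 0.21 ± 0.06 on the log2 scale (edgeR adjusted p = 0.0264), and was not called without WT/Sed replicate 1 or Cdo1KKO/Sed replicate 1 or 2 (up to 0.125). Cdk6, the alternative partner of the D-type cyclins, stood at 36.1, 31.6 and 40.5 CPM in WT/Sed and 40.7, 41.2 and 37.7 CPM in Cdo1KKO/Sed. These ranges overlapped, and no change was called (edgeR adjusted p = 0.233, and 0.0218 without WT/Sed replicate 3), although it was called as higher with library size only (edgeR adjusted p = 0.0126) and by limma on TPM. Cdk2, the partner of E-type cyclins, lay between 15.8 and 20.4 CPM in all 6 libraries, with a log2 fold change of 0.04.

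Of the inhibitors, Cdkn1b (p27, which holds cyclin E-Cdk2 inactive) stood at 63.2, 61.1 and 69.1 CPM in WT/Sed and at 55.9, 55.1 and 55.0 CPM in Cdo1KKO/Sed. The groups did not overlap, and it fell by 0.22 ± 0.06 on the log2 scale (edgeR adjusted p = 0.0125). Cdkn2c (p18, an inhibitor of Cdk4 and Cdk6) stood at 10.5, 10.2 and 9.44 CPM in WT/Sed and 7.72, 8.88 and 7.91 CPM in Cdo1KKO/Sed. Its groups did not overlap, but the change of -0.30 missed the threshold (edgeR adjusted p = 0.0525) and passed it with relative log expression factors in place of TMM (0.0498) or without WT/Sed replicate 3 (0.0319).

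How far these genes fell varied with the way libraries were scaled. The median change over all genes was 0.18 on the log2 scale when only library size was used, and 0.19 on deposited TPM (pseudocount 1). The share of rises among all calls was then 76.6% and 84.5%, against 50.5% with TMM. On TPM, Cdk4 and Cdkn1b turned to 0.04 and 0.03 on the log2(TPM + 1) scale, below the median of all genes, and no G1 regulator was called as fallen there. With library size only, Cdk4 and Cdkn1b lost their calls but stayed lower. Ccnd3 kept its direction under every scaling tried, at -0.21 (limma adjusted p = 0.0546) on that scale.

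The E-type cyclins, the retinoblastoma family and E2f1 gave no call by edgeR with TMM. Ccne1, at 0.300 to 0.681 CPM in WT/Sed and 0.741 to 1.01 CPM in Cdo1KKO/Sed, had a log2 fold change of 0.69 with an approximate 95% interval of -0.15 to 1.53, and limma on TPM plus 1 called it as higher (adjusted p = 0.0322). Ccne2 was at 2.18 to 2.60 CPM and 2.08 to 2.39 CPM. Rb1, the retinoblastoma protein itself, lay at 45.5 to 52.8 CPM and 47.1 to 48.0 CPM, and its relative Rbl1 (p107) at 9.92 to 11.8 CPM and 11.7 to 12.9 CPM (edgeR adjusted p = 0.111, and 0.0342 without WT/Sed replicate 3). Limma on TPM plus 1 called Rb1 (log2 fold change 0.22, adjusted p = 0.0400) as higher. Rbl1 was called as higher on TPM too, and by edgeR with library size only (adjusted p = 0.00982). E2f1 lay at 2.94 to 3.04 CPM in WT/Sed and 2.60 to 2.88 CPM in Cdo1KKO/Sed, without overlap, and its interval ran from -0.49 to 0.27 on the log2 scale. For 8 of the 9 G1 regulators that were not called, the interval lay within a 2-fold change in either direction, and the exception was Ccne1.

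**Figure D3:**
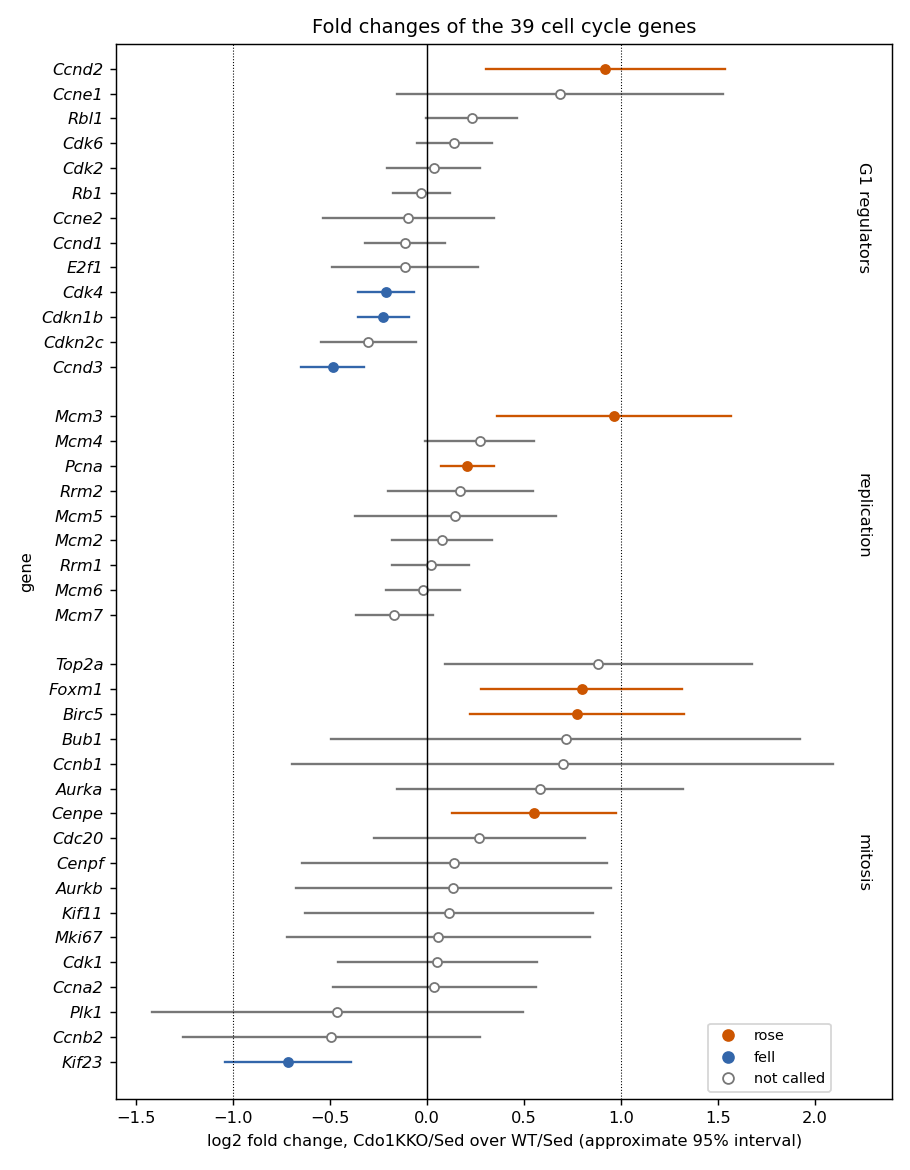
Log2 fold change of each gene, Cdo1KKO/Sed over WT/Sed, with an approximate 95% interval for that gene alone; filled orange points rose, filled blue points fell, open grey points were not called, and dotted lines mark a 2-fold change. The calls run in both directions among G1 regulators and mitosis genes, and the intervals of replication genes that were not called stay inside the dotted lines.

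Among the 9 replication genes 2 rose (22.2%, against 18.9% of all genes tested), none fell (against 18.5%) and 7 were not called by edgeR. None of the 7 had an unadjusted p under 0.05, and DESeq2 also called 2. The median log2 fold change of the 9 was 0.15. Pcna (chromosome 2, 132249162 to 132253314), the sliding clamp of DNA polymerase, stood at 33.3, 35.6 and 32.9 CPM in WT/Sed and at 39.8, 39.8 and 38.0 CPM in Cdo1KKO/Sed. The groups did not overlap, and the rise was small, 0.21 ± 0.06 on the log2 scale (edgeR adjusted p = 0.0214). Without WT/Sed replicate 1 or any single Cdo1KKO/Sed library it was not called (edgeR adjusted p up to 0.0903).

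The Mcm2 to Mcm7 subunits form the ring that unwinds DNA at the fork, in which each subunit occurs once. Mcm3 (chromosome 1, 20802968 to 20820312) stood at 2.57, 2.399 and 1.31 CPM in WT/Sed and at 3.98, 5.06 and 3.16 CPM in Cdo1KKO/Sed. It rose without overlap by a log2 fold change of 0.97 ± 0.27 (edgeR adjusted p = 0.0170), the largest change among the 39 genes. Without Cdo1KKO/Sed replicate 1 or 2 it was not called, with edgeR adjusted p up to 0.0917. The other five subunits had log2 fold changes from -0.17 (Mcm7) to 0.27 (Mcm4), and none was called by edgeR with TMM. Mcm4 was called as higher with library size only by edgeR and on TPM plus 1 by limma (log2 fold change 0.44, adjusted p = 0.00828). Per length the WT/Sed means ran from 12.1 TPM for Mcm6 through 8.85 TPM for Mcm7, 3.96 TPM for Mcm4, 2.92 TPM for Mcm2 and 2.02 TPM for Mcm5 to 1.26 TPM for Mcm3. Of the neighbours in that order, Mcm2 and Mcm5, and Mcm5 and Mcm3, lay within the sum of their SDs. In Cdo1KKO/Sed Mcm3 reached 2.93 ± 0.649 TPM, beside Mcm5 at 2.68 ± 0.526 TPM. The ratio of Mcm3 to Mcm6 in TPM was 0.107 ± 0.0414 in WT/Sed and 0.206 ± 0.0503 in Cdo1KKO/Sed, without overlap (two-sided exact permutation p = 0.1, the smallest possible, and a pair chosen after the values were seen).

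Ribonucleotide reductase makes the deoxynucleotides for replication. Its large subunit Rrm1 lay at 13.0 to 14.5 CPM in WT/Sed and 13.5 to 14.7 CPM in Cdo1KKO/Sed. Its small subunit Rrm2, which is made in S phase, lay at 3.97 to 5.74 CPM and 5.01 to 6.03 CPM. Both ranges overlapped. For 7 of the 7 replication genes that were not called, the interval lay within a 2-fold change.

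Among the 17 mitosis genes, 3 rose (17.6%, against 18.9% of all genes tested), 1 fell (5.88%, against 18.5%) and 13 were not called. Their median log2 fold change was 0.14. Foxm1 (chromosome 6, 128362967 to 128376146), the transcription factor of the mitotic wave, stood at 1.05, 1.12 and 0.973 CPM in WT/Sed and at 1.78, 1.81 and 1.87 CPM in Cdo1KKO/Sed. Its groups did not overlap, but it rested on only 111 counts in WT/Sed and 216 in Cdo1KKO/Sed over their libraries. The log2 fold change was 0.80 ± 0.24 (edgeR adjusted p = 0.0205). Birc5 (chromosome 11, 117849251 to 117855743), the survivin subunit of the chromosomal passenger complex, stood at 1.34, 0.900 and 1.46 CPM in WT/Sed and at 1.93, 2.26 and 2.20 CPM in Cdo1KKO/Sed. It rose without overlap, by 0.77 ± 0.25 on the log2 scale (edgeR adjusted p = 0.0310). Cenpe (chromosome 3, 135212537 to 135273611), a kinetochore motor, stood at 3.98, 3.04 and 3.16 CPM in WT/Sed and 5.70, 5.41 and 3.92 CPM in Cdo1KKO/Sed. It rose by 0.55 ± 0.19 on the log2 scale (edgeR adjusted p = 0.0425), although Cdo1KKO/Sed replicate 3 lay just below WT/Sed replicate 1. These 3 calls were not firm to leaving out a library. Foxm1 was not called without WT/Sed replicate 1 or any single Cdo1KKO/Sed library (edgeR adjusted p up to 0.0732), Birc5 without any library other than WT/Sed replicate 3 (up to 0.101), and Cenpe without WT/Sed replicate 2 or 3 or Cdo1KKO/Sed replicate 1 or 2 (up to 0.166).

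Kif23 (chromosome 9, 61915905 to 61946774), the kinesin of the central spindle that serves the last step of division, went the other way. It stood at 12.6, 9.67 and 14.9 CPM in WT/Sed and at 7.41, 7.34 and 7.98 CPM in Cdo1KKO/Sed. The groups did not overlap, and it fell by 0.71 ± 0.15 on the log2 scale (edgeR adjusted p = 0.0030). On TPM it kept its direction without a call (limma adjusted p = 0.0927 at pseudocount 0.1). It had the highest level per length of the mitosis genes in WT/Sed, at 3.57 ± 0.804 TPM, beside 0.453 ± 0.158 TPM for Kif11, the kinesin that separates the spindle poles. Kif11 itself was not called, at 0.900 to 1.80 CPM in WT/Sed and 1.18 to 2.31 CPM in Cdo1KKO/Sed.

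Mki67 and Top2a, both used as markers of proliferation, were not called by edgeR with TMM. Mki67, which encodes the Ki-67 antigen, stood at 5.70, 2.47 and 7.39 CPM in WT/Sed and at 5.21, 5.68 and 5.58 CPM in Cdo1KKO/Sed. The Cdo1KKO/Sed libraries sat inside the WT/Sed range, and the approximate 95% interval of the fold change ran from 0.607 to 1.79. Top2a, the topoisomerase that untangles sister chromosomes, stood at 2.08, 1.20 and 3.60 CPM in WT/Sed and at 3.31, 5.11 and 4.53 CPM in Cdo1KKO/Sed. Its ranges overlapped, and the log2 fold change of 0.89 ± 0.35 missed the threshold (edgeR adjusted p = 0.0767). It passed in 6 of 9 other settings and without WT/Sed replicate 3 (edgeR adjusted p = 0.000517), where the log2 fold change was 1.36.

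The kinase Cdk1 and its cyclins, which drive entry into mitosis, gave no call by edgeR with TMM. Cdk1 was at 1.39, 1.4993 and 1.75 CPM in WT/Sed and 1.47, 1.74 and 1.61 CPM in Cdo1KKO/Sed, and Ccna2 at 1.99 to 3.24 CPM and 2.24 to 3.24 CPM. Ccnb1 rested on 74 counts in WT/Sed and 126 in Cdo1KKO/Sed, with 2 counts in WT/Sed replicate 2, and its interval ran from -0.70 to 2.09. It was called as higher without WT/Sed replicate 3 (edgeR adjusted p = 0.0276). Ccnb2, at 0.750 to 1.85 CPM and 0.855 to 1.26 CPM, was called as lower without WT/Sed replicate 2 (0.0425). A gene named as a copy, Ccnb2-ps, had 43 to 123 counts per library, so the split of reads between the pair is uncertain.

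The remaining mitosis genes were the kinases and checkpoint proteins of the spindle. Cdc20, the activator of the anaphase-promoting complex, lay at 1.12 to 1.48 CPM in WT/Sed and 1.41 to 1.66 CPM in Cdo1KKO/Sed. Aurka, the kinase of the spindle poles, lay at 0.925 to 1.70 CPM and 1.18 to 2.42 CPM, and Aurkb, the kinase of the passenger complex with Birc5, at 0.438 to 0.642 CPM and 0.523 to 0.654 CPM. Plk1 lay at 0.540 to 0.975 CPM and 0.327 to 0.880 CPM, Cenpf at 0.600 to 1.49 CPM and 0.959 to 1.65 CPM, and Bub1 at 0.0750 to 0.463 CPM and 0.377 to 0.674 CPM. None was called by edgeR with TMM and all libraries. Cdc20 was called as higher by limma on TPM plus 1 (log2 fold change 0.35, adjusted p = 0.0431), and Aurka was called without WT/Sed replicate 3 (edgeR adjusted p = 0.0496). For only 7 of the 13 mitosis genes that were not called did the interval lie within a 2-fold change. A 2-fold rise was not outside the interval for Ccnb1, Top2a, Bub1 and Aurka, nor a 2-fold fall for Ccnb2 and Plk1.

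**Figure D4:**
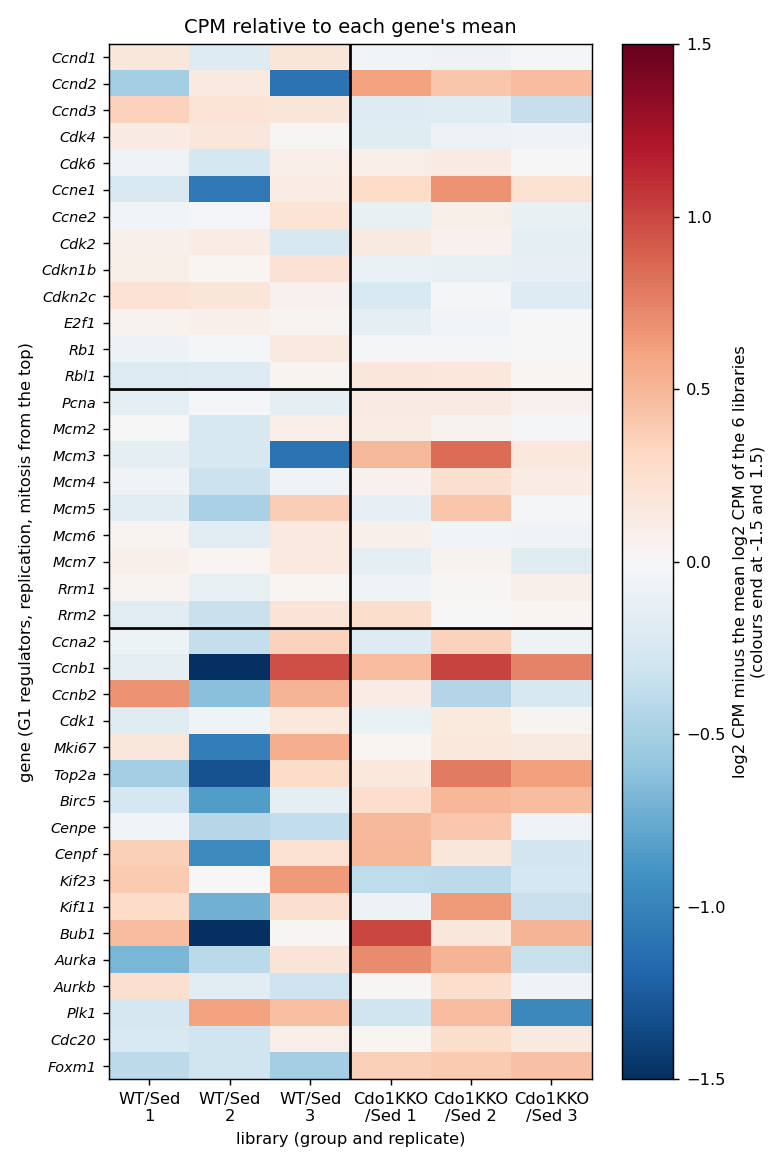
Log2 CPM of each gene minus its mean over the 6 libraries, with genes in order of role from the top and libraries from left to right; red is above and blue below the mean, and colours end at -1.5 and 1.5. WT/Sed replicate 2 is the bluest column of the mitosis block, where it is the lowest WT/Sed library for 12 of 17 genes.

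Many of the mitosis genes were lowest in the same WT/Sed library. WT/Sed replicate 2 was the lowest of the 3 for 12 of 17 mitosis genes, 7 of 9 replication genes and 4 of 13 G1 regulators. That library had the lowest depth, and the share of all genes tested that were lowest in it was not taken. Whether the pattern is particular to these genes was therefore not tested. The summed mitosis level was 39.98, 27.999 and 47.3 CPM in WT/Sed and 39.8, 44.02 and 38.3 CPM in Cdo1KKO/Sed, so that in CPM the Cdo1KKO/Sed libraries lay between the WT/Sed extremes. Kif23, the only 1 of the 17 called as fallen, held a large part of these sums. It gave 12.6, 9.67 and 14.9 CPM in WT/Sed and 7.41, 7.34 and 7.98 CPM in Cdo1KKO/Sed. The log2 fold change was positive for 14 of the 17 genes. In TPM the WT/Sed sums were 17.1, 12.4 and 20.5 TPM against 21.3, 22.7 and 19.8 TPM, and 2 of the 3 Cdo1KKO/Sed libraries lay above the WT/Sed maximum. The median coefficient of variation of the mitosis genes was 28.6% in WT/Sed, where counting error alone gives a median of 14.8%, and 19.0% in Cdo1KKO/Sed, where it gives 12.5%. Without WT/Sed replicate 2, Mki67 had a log2 fold change of -0.25, and without WT/Sed replicate 3 one of 0.38, with no call in either case. The summed injured tubule markers had the same order among WT/Sed libraries, at 23.8, 13.6 and 27.0 CPM. Only Havcr1 and Lcn2, 2 of the 6 markers, followed that order singly, and the part of injured tubule in the mitosis levels was not tested.

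Summed by role, G1 regulators gave 376, 350 and 383 CPM in WT/Sed and 347, 347 and 340 CPM in Cdo1KKO/Sed, without overlap. In TPM the direction of the sums turned, again without overlap, at 168, 155 and 172 TPM for the WT/Sed libraries against 180.0, 178 and 180.0 TPM. All genes shift upward on that scale too. The median log2 fold change was 0.15 for G1 regulators and 0.19 for all genes on TPM plus 1, and -0.09 and 0.01 with TMM. The G1 median thus lay below that of all genes on both scales. Replication genes gave overlapping sums of 116, 110 and 121 CPM and 125, 127 and 119 CPM. In TPM their sums were higher in Cdo1KKO/Sed without overlap, at 69.9, 66.9 and 73.0 TPM against 93.2, 92.97 and 88.5 TPM. Much of these TPM sums was Pcna alone, at 32.1 ± 1.02 TPM in WT/Sed and 44.2 ± 1.02 TPM in Cdo1KKO/Sed. In TPM the sum of replication genes was 0.424 ± 0.00794 of that of G1 regulators in WT/Sed and 0.510 ± 0.0165 in Cdo1KKO/Sed, without overlap. The sum of mitosis genes was 0.237 ± 0.0482 of that of replication genes in WT/Sed and 0.232 ± 0.0108 in Cdo1KKO/Sed, with overlap. These ratios were chosen after the values were seen and carry no test. Kif23, which fell, gave 3.57 TPM of the mitosis sum on average in WT/Sed and 2.60 TPM in Cdo1KKO/Sed.

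Markers of several other cell types also differed between the groups, though not in every list. The summed level of 10 macrophage markers was 56.2 to 87.2 CPM in WT/Sed and 364 to 388 CPM in Cdo1KKO/Sed, with 8 risen and 1, Csf1r, fallen. Most of that difference was Cd14: the other 9 markers summed to 53.3 to 82.3 CPM and 89.9 to 91.6 CPM. Much of the latter sums was Csf1r, at 40.8 to 53.1 CPM in WT/Sed and 36.0 to 37.1 CPM in Cdo1KKO/Sed. Apart from Cd14 and Csf1r, the markers rose from 1.65-fold (C1qb) to 8.95-fold (Cd68), except C1qa, which was not called (1.54-fold). That of 8 red cell and erythroblast markers was 29.5 to 56.2 CPM and 412 to 435 CPM, with 6 risen, Epor fallen and Klf1 not called. The 6 fibroblast and pericyte markers summed to 28.7 to 44.04 CPM and 71.3 to 80.7 CPM, with 5 risen, and the neutrophil markers to 1.57 to 3.03 CPM and 14.1 to 17.2 CPM, with 4 of 5 tested risen. T and NK cell markers summed to 1.58 to 3.79 CPM and 3.72 to 4.19 CPM, with 0 of 6 tested called by edgeR or DESeq2 (0 also at an unadjusted p under 0.05; limma on TPM called 1). B and plasma cell markers summed to 5.40 to 10.8 CPM and 7.59 to 8.43 CPM, with 2 of 6 risen. No marker was at 0 in all libraries of a group. The part of these cell types in Ccnd2, Mcm3, Pcna, Birc5, Cenpe and Foxm1 was not tested.

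**Figure D5:**
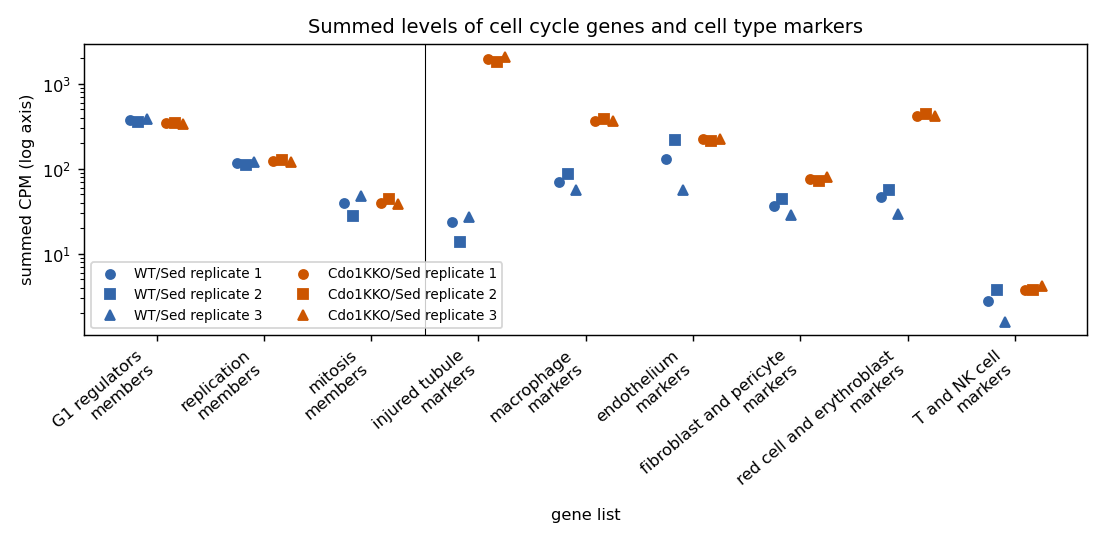
Summed CPM, on a log axis, of the 3 groups of cell cycle genes (left of the line) and of marker lists of cell types (right of the line) in each library; shapes are replicates. In CPM the replication sum lies between 110 and 127 in all 6 libraries (in TPM its groups do not overlap), while the injured tubule sum goes from at most 27.0 CPM in WT/Sed to at least 1810 CPM in Cdo1KKO/Sed.

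The wider pathway was read from 137 other cell cycle genes, of which 131 could be tested. Of these 19 rose (14.5%, against 18.9% of all genes tested) and 8 fell (6.11%, against 18.5%). Their median log2 fold change was 0.12, close to that of the 39 genes. Other G1 genes gave 5 rises (20%) and 2 falls (8%) among 25, and other replication genes 5 (12.5%) and 5 (12.5%) among 40. Other mitosis genes gave 5 (10.4%) and 0 among 48, and checkpoint and repair genes 4 (22.2%) and 1 (5.56%) among 18. The strongest G1 call was Cdkn1a (p21, an inhibitor of cyclin-dependent kinases induced by p53), at 14.5, 15.9 and 17.3 CPM in WT/Sed and 51.1, 51.9 and 50.8 CPM in Cdo1KKO/Sed. Its log2 fold change was 1.69 ± 0.07 (edgeR adjusted p = 4.2e-08), larger than that of any of the 39 genes. Btg1, an antiproliferative factor, rose by 0.67, E2f3 rose by 0.64 and Lin52, a MuvB subunit, fell by 0.50 on the log2 scale.

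Among replication genes outside the 39, Uhrf1, which keeps DNA methylation through replication, went from 1.09 ± 0.306 to 3.43 ± 0.0326 CPM (SD, n = 3), and Chaf1b, a chromatin assembly subunit, from 1.07 ± 0.118 to 3.21 ± 0.641 CPM, and both rose. Orc4, of the origin recognition complex, fell by 0.27 on the log2 scale with TMM and was not called on TPM. Of the mitosis genes, Cks1b, a partner of cyclin-dependent kinases, rose from 2.05 ± 0.259 to 4.49 ± 0.432 CPM, and Smc4, Pkmyt1 and Ckap2 also rose, with log2 fold changes of 0.41, 1.14 and 1.31. Pkmyt1 was not called without Cdo1KKO/Sed replicate 1 or 2 (edgeR adjusted p up to 0.0788), nor Ckap2 without WT/Sed replicate 1 or Cdo1KKO/Sed replicate 2 or 3 (up to 0.115).

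The genes of checkpoint and repair held the largest rise of these lists. Rad18, a ubiquitin ligase that acts at stalled forks, went from 1.53 ± 0.169 to 6.29 ± 1.66 CPM, a log2 fold change of 2.04 ± 0.22 (edgeR adjusted p = 3.77e-05). Gadd45a, a stress-induced gene, rose by 1.14 and Blm, a helicase, by 0.85 on the log2 scale. Chek2, a checkpoint kinase, fell by 0.62 with TMM and was not called on TPM (limma adjusted p up to 0.0602). Of the 16 genes with the smallest p in these lists, 4 from each, 12 kept their call in all 15 alternative settings. These 16 were picked by small p in the same libraries, so the count is no independent support. For that reason it cannot be compared with the count for the 10 called cell cycle genes. Of the 10 called cell cycle genes, Ccnd3, Cdkn1b and Kif23 kept their call when any 1 library was left out, and none of the 10 kept it in all 15 settings.

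Some of these genes share exon bases with a neighbour, and reads from the pair cannot be told apart without strand, which the sources used here do not give. This held for 9 of the 39 genes with a neighbour of at least 60 counts. LTO1 covered 23.4% of the exon bases of Ccnd1, Tspan31 19.7% of Cdk4, Ints8 17.4% of Ccne2, Exosc9 12.5% of Ccna2 and Bysl 4.11% of Ccnd3. Rcbtb2 covered 8.11% and Lpar6 6.78% of Rb1, and Ap4m1 covered 7.25% and Cops6 1.45% of Mcm7. Elovl1 covered 2.84% of Cdc20 and Pmel 0.547% of Cdk2. The levels and changes of the 9 genes are uncertain by what the neighbour contributes.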

How the data were processed

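The authors deposited counts per gene and TPM for 6 libraries, 3 in each of 2 groups. Per the submitters' processing notes, fastp 0.23.4 and the builds GRCm38 and mm10 were used; for the aligner, counter, annotation and strandedness each is not given in the sources used here. Only whole numbers occur in the deposited counts, and the authors' TPM values follow from them by gene length.

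Under R 4.3.3, edgeR 4.0.16 filtered the counts (filterByExpr, 17194 genes kept), scaled them by TMM and compared the genotypes by its robust quasi-likelihood test without covariates. Adjusted p values are those of Benjamini and Hochberg across the 17194 genes (threshold 0.05). CPM use TMM-scaled library sizes. The SE is the log2 fold change divided by the root of F, and 95% intervals are unadjusted. Depth was 28145261 to 43872779 counts per library, and counting error alone is large for genes under 100 counts. The script was tested on simulated data. Alternatives used limma 3.58.1 (voom, and log2 of TPM plus 1 or 0.1) and DESeq2 1.42.0. Positions came from GENCODE M21 (GRCm38), promoters from RefSeq (GRCm38.p6).

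The 39 genes and the other lists were chosen with earlier results of these data known. All 39 may be named, as may up to 4 genes of smallest p in each list of other cell cycle genes. The result for 1 of these is not reported here. Replicates are labelled biological, with no animals named, and libraries of a group differed by more than sampling noise. Same-numbered libraries did not deviate together.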

Additional observations from a re-analysis of the deposited data

How the results depend on the processing

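The counts of calls moved most with the scaling. With library size only, 10 of the 39 genes rose and 2 fell, 3 G1 regulators rose and 1 fell, and 40 other cell cycle genes rose and 4 fell. On TPM plus 1, 13 of the 39 rose and 0 fell (5 and 0 of the G1 regulators, 5 and 0 of the mitosis genes), and 51 other cell cycle genes rose and 2 fell; on TPM plus 0.1 these counts were the same except that 47 other cell cycle genes rose. At an unadjusted p under 0.05, limma had 2 of the 39 lower on TPM plus 1 and 1 on TPM plus 0.1. Log2 fold changes that turned positive with library size only, on TPM plus 1 and on TPM plus 0.1 were, in that order, 0.0588, 0.151 and 0.154 for Ccnd1, 0.0738, 0.099 and 0.153 for Ccne2, 0.0562, 0.0949 and 0.131 as E2f1 log2 fold change, 0.14, 0.217 and 0.227 for Rb1, 0.149, 0.224 and 0.24 for Mcm6 and 0.000908, 0.0756 and 0.0829 as Mcm7 log2 fold change. Only the TPM settings turned Cdk4 (0.0414 and 0.0425) and Cdkn1b (0.032 and 0.0329). These scalings move the median of all genes in the same direction, and also the calls over all 17194 genes tested. Of those, 5513 rose and 1685 fell with library size only. By limma, 6784 rose and 1246 fell on TPM plus 1, and 6660 rose and 1224 fell on TPM plus 0.1.

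Leaving out 1 library at a time gave 0 to 10 risen and 3 to 6 fallen among the 39 genes, 0 to 3 and 2 to 4 among G1 regulators, 0 to 2 risen among replication genes, 0 to 5 and 1 to 2 among mitosis genes, and 13 to 27 and 5 to 13 among other cell cycle genes. The count of 0 risen came without Cdo1KKO/Sed replicate 1 or 2 (edgeR, 6 and 5 higher at an unadjusted p under 0.05), and that of 10 without WT/Sed replicate 3. The number of all genes called was 4682 to 7320. Directions that turned in these settings belonged to genes that were not called, with ranges of -0.137 to 0.247 for Ccna2, -0.0216 to 0.157 for Cdk1, -0.00457 to 0.15 for Mcm2, -0.0343 to 0.407 for Mcm5, -0.0231 to 0.0548 for Rrm1, -0.252 to 0.385 for Mki67, -0.139 to 0.365 for Cenpf, -0.222 to 0.309 for Kif11, -0.0738 to 0.105 for Cdk2, -0.0724 to 0.0366 for Rb1 and -0.0961 to 0.0465 for Mcm6. Fewer libraries in a fit can lower the power, but 2 of these fits gave more calls than all 6 libraries (3250 rises and 3185 falls). Without WT/Sed replicate 2, 3767 genes rose and 3553 fell, and without WT/Sed replicate 3, 3565 rose and 3505 fell. No cause of these shifts was tested.

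With the replicate number as a block, 5 of the 39 genes rose and 4 fell, and the number of all genes called was 6146. Birc5 lost its call (edgeR adjusted p = 0.0523). Same-numbered libraries correlated at -0.0022, 0.010 and 0.013 in their deviations from the group means, so the numbers do not pair the libraries. The other settings kept the counts for the 39 genes at 6 or 7 risen and 4 or 5 fallen. With a filter of 1 CPM in 3 libraries, Ccne1, Bub1, Aurkb and Plk1 were not tested. Depth limits the mitosis genes most, with 34 counts for Bub1 in WT/Sed and 59 in Cdo1KKO/Sed over 3 libraries each.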
